A study of Mus musculus with 5 samples.

Results

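Whole Drop-seq libraries of the outer medulla and the cortex of the mouse kidney were compared gene by gene, with every barcode of a library summed and no cell classes formed. The members are the 1 outer medulla library and the 1 cortex library of the 5 libraries in the series. The 2 whole kidney libraries, summed the same way, gave the difference between libraries of 1 kind. Drop-seq encloses cells in droplets with beads whose primers hold a barcode and a unique molecular identifier (UMI), so that UMIs count captured mRNA molecules and barcodes tell the beads apart. All libraries came from wild-type mice of the strain labelled C56BL/6N. Kidneys were cleared of blood with cold buffer and digested with a protease active in the cold, and the cells were kept in methanol before the run. The labels give no age, no sex and no number of animals, and do not say whether the libraries came from the same animals. They also do not state which layers of the outer medulla were taken.

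The nephron crosses both regions in a fixed order. Glomeruli, the convoluted proximal tubule, the distal convoluted tubule and the connecting tubule lie in the cortex. The straight end of the proximal tubule (the S3 segment), much of the thick ascending limb and a stretch of the collecting duct lie in the outer medulla. The thick ascending limb reabsorbs salt without water and so powers the concentration of urine. The principal cells of the collecting duct let water through under vasopressin, and the connecting tubule sets how much calcium is returned to the blood. The question that the pair of libraries addresses is how strongly this layout shows in the RNA of dissected tissue as a whole.

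The cortex library held 3527638 UMIs in 11443 barcodes and the outer medulla library 2715993 UMIs in 10895 barcodes. The whole kidney libraries held 2910597 and 4169677 UMIs. Medians were 102 to 130 UMIs per barcode in these 4 libraries, and no barcode had fewer than 50 genes. Barcodes with 500 or more genes held 45.6% of the cortex UMIs, 36.2% of those of outer medulla, and 36.6% and 45.2% of those of the whole kidney libraries. Cortex and outer medulla had 4 barcode sequences in common. No mitochondrially encoded gene was listed. Levels are UMIs of a gene per 1000000 UMIs of the library (CPM), and a log2 ratio is that of CPM plus 5, which understates the difference of low genes. Folds are plain ratios of CPM, followed in parentheses by exact 95% intervals that cover counting error only. With 1 library on each side there is no replicate of a region, and for that reason the comparison carries no test and no p-value. In summed libraries, more cells of a type and more RNA per cell cannot be told apart.

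Genes of the thick ascending limb and of collecting duct principal cells were higher in outer medulla, and genes of the connecting tubule and the distal convoluted tubule were higher in cortex. The genes of the proximal tubule differed little. A gene was counted as measured with at least 20 CPM in the higher library, which held for 5913 genes. Of these, 64 (1.08%) were at least 2-fold higher in outer medulla on the log2 scale and 19 (0.321%) at least 2-fold higher in cortex. Between the whole kidney libraries, 4 of 5787 measured genes (0.0691%) were 2-fold higher in the second and 13 (0.225%) in the first. At 1.5-fold, the counts were 207 (3.5%) and 116 (1.96%) for the regions, against 33 (0.57%) higher in whole kidney 2 and 134 (2.32%) higher in whole kidney 1. Above equality lay 57.8% of genes for outer medulla over cortex and 40.6% for whole kidney 2 over 1, and below it 42.2% and 59.4%. The SD of the log2 ratio over genes was 0.33 for outer medulla over cortex and 0.25 for whole kidney 2 over 1, and the medians were 0.05 and -0.05. All 64 genes higher in outer medulla differed more between the regions than between the whole kidney libraries, as did 18 of the 19 genes higher in cortex (0.304% of all measured). The exception was Cyp24a1, the enzyme that breaks down active vitamin D, at 83.3 CPM in cortex, 35.7 in outer medulla, and 149 and 28.3 in whole kidney 1 and 2. The 64 and 19 genes were chosen for a 2-fold ratio between the regions, which few genes reached between the whole kidney libraries. That nearly all differed more between the regions was therefore largely fixed in advance. Both whole kidney libraries lay below outer medulla for all 64 genes and above outer medulla for 17 of the 19.

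**Figure D1:**
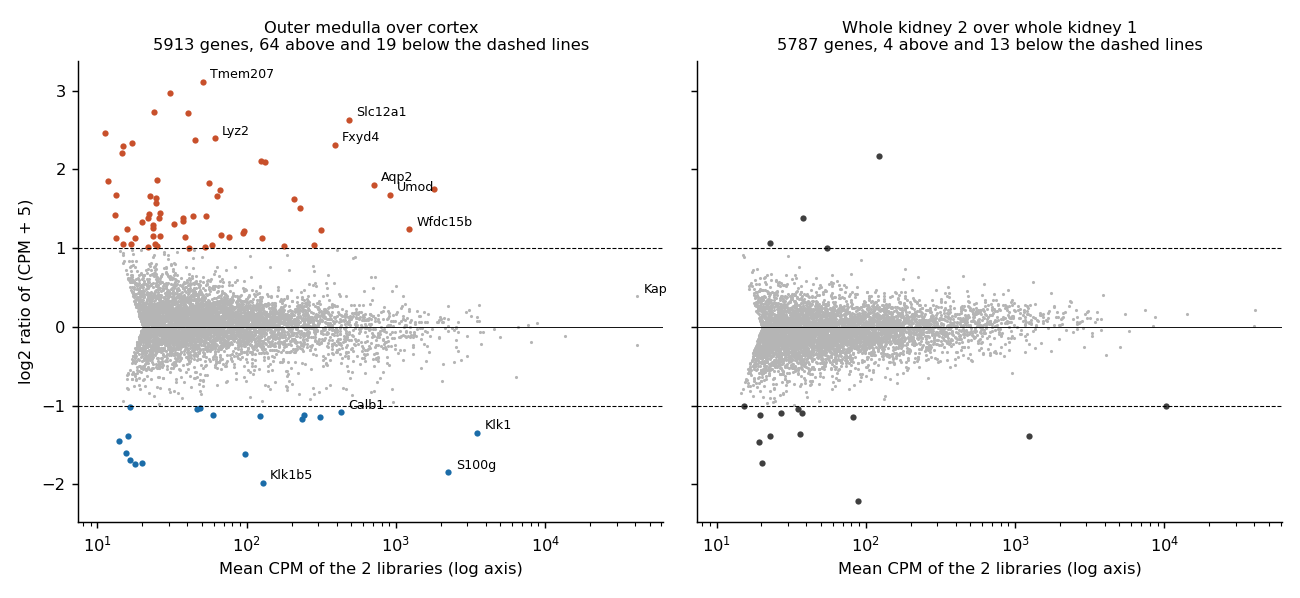
Each point is a gene with at least 20 CPM in the higher library: mean CPM of the pair on a log axis against the log2 ratio of CPM plus 5, for outer medulla over cortex (left) and whole kidney 2 over whole kidney 1 (right). Dashed lines mark 2-fold; 64 and 19 genes lie beyond them on the left, against 4 and 13 on the right.

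The thick ascending limb list held 16 markers, of which 13 were measured. All 13 were higher in outer medulla (57.8% of all measured genes were), and 7 were at least 2-fold higher, against 1.08% of all measured genes. Their median log2 ratio was 1.04, against 0.05 over all genes, and in the whole kidney comparison the median was -0.40 with all 13 on the other side of 0. Summed over the list, the level was 2568 CPM in cortex, 6295 in outer medulla, and 2916 and 2267 in whole kidney 1 and 2, a 2.45-fold difference between the regions (2.39 to 2.51). The whole kidney libraries thus sat near cortex on this list. In barcodes with at least 500 genes the median log2 ratio of the list was 0.02. Of the 13 measured markers, Cldn16, Cldn19, Ptger3 and Casr passed the minimum of 20 CPM through the outer medulla library alone.

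Slc12a1 encodes the Na-K-2Cl cotransporter NKCC2, through which the thick ascending limb takes up salt and which loop diuretics block. It stood at 131 CPM in cortex, 835 in outer medulla, and 227 and 156 in whole kidney 1 and 2. The outer medulla was above cortex and both whole kidney libraries, and the fold over cortex was 6.39 (5.78 to 7.08). Umod, the gene of uromodulin, the most abundant protein of normal urine, stood at 432 CPM in cortex, 1393 in outer medulla, and 493 and 412 in whole kidney 1 and 2 (3.23-fold, 3.04 to 3.43). Wfdc15b, a gene of the whey acidic protein family, was at 724, 1719, 683 and 535 CPM in the same order (2.37-fold, 2.26 to 2.49). For both genes the cortex and the whole kidney libraries lay close together and the outer medulla apart.

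The paracellular route for calcium and magnesium in this segment is built from claudin-16 and claudin-19. Cldn19 was at 7.94 CPM in cortex and 42 in outer medulla, with 7.9 and 7.19 in the whole kidney libraries, and Cldn16 was at 9.07 and 30.6, with 11.7 and 11.5. Cldn10, the claudin of the sodium route, was at 270 CPM in cortex, 536 in outer medulla, and 451 and 340 in whole kidney 1 and 2. Its log2 ratio of 0.98 fell just short of 2-fold, and the whole kidney libraries lay between the regions. Ptger3, the prostaglandin E2 receptor EP3, was at 11.1 CPM in cortex and 78.4 in outer medulla (7.09-fold, 5.02 to 10.3). The whole kidney libraries had 16.1 and 9.83 CPM of it. Tmem72, a membrane protein gene, was the remaining 2-fold member at 36.6 and 80.3 CPM.

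Other thick ascending limb genes showed smaller ratios. The log2 ratio was 0.51 for Kcnj1, the potassium channel ROMK that recycles potassium to the lumen, 0.54 for Casr, the calcium-sensing receptor, and 0.55 for Egf, the epidermal growth factor precursor. Kcnj1 differed more between the whole kidney libraries (-0.91) than between the regions. Casr stood at 13.6 and 22.1 CPM and Egf at 310 and 458 CPM in cortex and outer medulla. Of the claudin list as a whole, 2 of 6 measured genes were 2-fold higher in outer medulla (1.08% of all measured genes were), both named above. Cldn2, the cation-permeable claudin of the proximal tubule, had 226 CPM in cortex and 209 in outer medulla.

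Principal cell markers split within their own list. Of 14 markers 13 were measured, 10 were higher in outer medulla (57.8% of all measured genes were), 6 of them at least 2-fold (1.08% of all measured genes), and the median log2 ratio was 0.71. The whole kidney median was -0.31, and all 13 were lower in whole kidney 2. The 6 were the water channels Aqp2, Aqp3 and Aqp4, the vasopressin V2 receptor Avpr2, the sodium pump regulator Fxyd4 and the apelin receptor ligand Apela. The summed level was 1096 CPM in cortex, 3006 in outer medulla, and 1139 and 890 in whole kidney 1 and 2 (2.74-fold between the regions, 2.64 to 2.85). Aqp4 and Avpr2 passed the minimum of 20 CPM through the outer medulla library alone, and Kcne1 through the cortex library alone.

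Aqp2, the water channel that vasopressin moves to the apical membrane, was at 313 CPM in cortex, 1108 in outer medulla, and 350 and 256 in whole kidney 1 and 2 (3.54-fold, 3.3 to 3.8). Of the cortex UMIs of Aqp2, 15.9% lay in 1 barcode, against 2.26% in outer medulla. That share was 12.2% and 1.81% for Fxyd4, 16.3% and 1.7% for Apela, 14.2% and 2.21% for Aqp3, and 16.9% and 3.03% for Avpr2. The counting intervals do not cover such concentration. Fxyd4 was at 127, 651, 141 and 129 CPM (5.11-fold, 4.61 to 5.69) and Apela at 47.1, 216, 47.8 and 37.7 CPM (4.6-fold, 3.87 to 5.5). For these genes the cortex and both whole kidney libraries were nearly level. Aqp4, a basolateral water channel, was at 3.12 CPM in cortex and 58.5 in outer medulla, with 6.53 and 4.32 in the whole kidney libraries. Avpr2 was at 16.7 and 48.6 CPM, and Aqp3, the other basolateral channel, at 184 and 384 CPM in cortex and outer medulla.

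The epithelial sodium channel genes stood near equality. The subunits Scnn1a, Scnn1b and Scnn1g had log2 ratios of -0.10, -0.21 and 0.12, at 35.2 and 32.4, 27.2 and 22.8, and 21 and 23.2 CPM in cortex and outer medulla. Hsd11b2, the enzyme that shields the mineralocorticoid receptor from glucocorticoids, was at 210 and 309 CPM (log2 ratio 0.54). Kcne1, a potassium channel subunit, was lower in outer medulla, at 12.9 against 25.8 CPM, but differed nearly as much between the whole kidney libraries (27.1 and 15.8 CPM). Water channel genes and sodium channel genes of the same list therefore had different ratios in this pair of libraries.

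Markers of the inner medullary collecting duct were sparse. Their summed ratio of outer medulla over cortex was 1.89 over all barcodes. In barcodes with at least 500 genes it was 0.938 (0.701 to 1.25). Slc14a2, the gene of the vasopressin-regulated urea transporter UT-A, had 0 UMIs in cortex and 61 in outer medulla (22.5 CPM). Set against a floor of 3 UMIs in cortex, it was 26.4-fold higher in outer medulla, and the exact 95% interval of the ratio to the count of 0 begins at 20.8. The 61 UMIs lay in 22 barcodes, with 13.1% of them in 1 barcode, and the interval does not cover such concentration. Slc14a2 had 0 UMIs in whole kidney 1 and 1.2 CPM in whole kidney 2. Plet1, a surface protein gene of collecting duct cells, was at 9.92 CPM in cortex and 39.4 in outer medulla, whereas Rnf183, a ubiquitin ligase gene, was level at 48.2 and 47.5 CPM. Slc14a2, Plet1 and Nupr1, another marker of the list, passed the minimum of 20 CPM through the outer medulla library alone. The inner medulla library lay above outer medulla for 54 of the 64 genes higher in outer medulla, among them Aqp2 at 9972 CPM, Fxyd4 at 3839 and Cryab at 8253. Tissue of the neighbouring region in the outer medulla piece, and its part in these ratios, was not tested.

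Intercalated cells, the acid-base cells that lie between principal cells, gave a different picture. Of 9 measured markers none was 2-fold apart, 6 were lower in outer medulla (42.2% of all measured genes were), and the median log2 ratio was -0.37 (-0.26 between the whole kidney libraries). Atp6v1g3, a subunit of the proton pump, was at 218 CPM in cortex, 147 in outer medulla, and 222 and 195 in whole kidney 1 and 2. Slc26a4 (pendrin), the chloride-bicarbonate exchanger of bicarbonate-secreting cells, was at 27.5 CPM in cortex and 14.4 in outer medulla, and Aqp6, a water channel of acid-secreting cells, was at 11.6 and 27.6 CPM. Slc26a4 thus passed the minimum of 20 CPM through the cortex library alone, and Aqp6 through the outer medulla library alone.

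The connecting tubule list gave the clearest difference in the other direction. Of 9 markers 6 were measured, all 6 were higher in cortex (42.2% of all measured genes were), and 4 were at least 2-fold higher, against 0.321% of all measured genes. The median log2 ratio was -1.21, against -0.32 between the whole kidney libraries. The summed level was 9787 CPM in cortex, 3644 in outer medulla, and 9176 and 7357 in whole kidney 1 and 2, so that cortex was 2.69-fold higher (2.63 to 2.75). Both whole kidney libraries were nearer to cortex.

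The 4 genes were those of calcium handling and of kallikrein. S100g encodes calbindin-D9k and Calb1 calbindin-D28k, proteins that carry calcium across the cell, and Slc8a1 encodes the sodium-calcium exchanger NCX1 that extrudes it. S100g was at 3517 CPM in cortex, 974 in outer medulla, and 3168 and 2656 in whole kidney 1 and 2 (3.61-fold higher in cortex, 3.46 to 3.77). Slc8a1 was at 150, 45.7, 146 and 112 CPM (3.28-fold, 2.69 to 4.02) and Calb1 at 582, 272, 756 and 601 CPM (2.14-fold, 1.97 to 2.33). In all of these the outer medulla was the lowest of the 4 libraries, and for Calb1 the cortex lay below both whole kidney libraries. Atp2b1, a plasma membrane calcium pump, and Kl (klotho), the co-receptor of fibroblast growth factor 23, had log2 ratios of -0.31 and -0.49. Trpv5, the apical calcium channel, had 3.97 CPM in cortex and 0.736 in outer medulla, too few to be counted as measured.

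Klk1 encodes tissue kallikrein, the protease that releases kinins. It was at 5014 CPM in cortex, 1974 in outer medulla, and 4543 and 3530.5 in whole kidney 1 and 2 (2.54-fold higher in cortex, 2.46 to 2.62). Its paralogs of the Klk1b family, most of them singled out after their values were seen, followed in direction. All 6 measured ones were at least 2-fold higher in cortex (0.321% of all measured genes were). All but Klk1b5 passed the minimum of 20 CPM through the cortex library alone. Klk1b5, named by rule, was at 208 CPM in cortex and 49 in outer medulla, but at 59.8 and 42 in the whole kidney libraries. Summed over the 6 paralogs, the level was 333 CPM in cortex, 80.3 in outer medulla, and 124 and 90.4 in whole kidney 1 and 2. The paralogs thus differed from Klk1, for which whole kidney sat near cortex: for them the cortex library stood apart from the other 3. Their transcripts match that of Klk1 at 85.5% to 94.9% of aligned bases in the GENCODE M21 transcript set, so reads may have been split between family members and the single values are uncertain.

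The distal convoluted tubule, the segment before the connecting tubule, followed with smaller ratios. Of 6 measured markers 5 were higher in cortex (42.2% of all measured genes were), 1 of them 2-fold (0.321% of all measured genes), with a median of -0.76 (-0.38 between the whole kidney libraries). Pvalb (parvalbumin), a calcium-binding protein of the early part of this segment, was at 171 CPM in cortex, 75.1 in outer medulla, and 166 and 114 in whole kidney 1 and 2 (2.27-fold higher in cortex, 1.94 to 2.68). Slc12a3, the thiazide-sensitive sodium-chloride cotransporter NCC, was at 175, 102, 169 and 130 CPM, and Wnk1, a kinase that controls it, at 234, 135, 222 and 191 CPM. The kinase gene Wnk4 was the exception at 32 CPM in cortex and 37.9 in outer medulla. The salt cotransporters of the thick ascending limb and of the next segment, Slc12a1 and Slc12a3, thus had log2 ratios of opposite sign, 2.63 and -0.75.

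**Figure D2:**
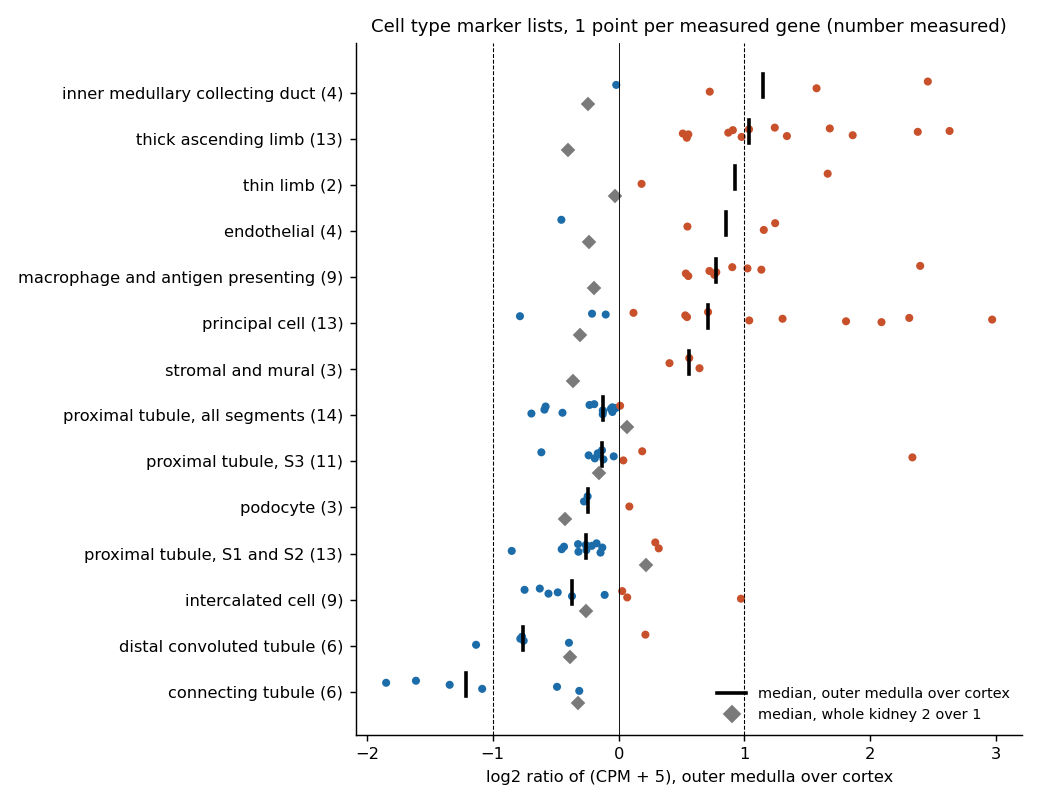
Each point is a measured marker gene, placed by its log2 ratio of CPM plus 5 for outer medulla over cortex; black bars are list medians and grey diamonds the medians for whole kidney 2 over 1. Thick ascending limb markers all lie above 0 (median 1.04) and connecting tubule markers all below 0 (median -1.21), while the proximal tubule lists lie near 0.

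Proximal tubule genes shifted only slightly toward cortex. Of the 13 markers of the S1 and S2 segments, all measured, 11 were higher in cortex (42.2% of all measured genes were), none of them 2-fold, with a median of -0.26 against 0.22 between the whole kidney libraries. The summed level was 9571 CPM in cortex, 8199.6 in outer medulla, and 9077 and 9789 in whole kidney 1 and 2. Slc34a1, the phosphate cotransporter NaPi-IIa, was at 2818 CPM in cortex and 2058 in outer medulla, and Slc5a2, the glucose cotransporter SGLT2, at 447 and 385 CPM. Slc22a8, the organic anion transporter OAT3, had the lowest ratio of the list at -0.85, with 291 CPM in cortex, 159 in outer medulla, and 156 and 207 in whole kidney 1 and 2. The whole kidney libraries had 374 and 413 CPM of Slc5a2.

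The S3 segment, which lies in the outer stripe of the outer medulla, did not stand out as a list. Of 11 measured markers 3 were higher in outer medulla, against 57.8% of all measured genes, and the median log2 ratio was -0.13, against -0.16 between the whole kidney libraries. The summed level was 4979 CPM in cortex and 4833 in outer medulla, and it was 6065 and 5709 in the whole kidney libraries. Single genes nevertheless differed widely. Cyp7b1, an oxysterol hydroxylase, was at 2.27 CPM in cortex (8 UMIs), 31.7 in outer medulla (86 UMIs), and 12.7 and 6.24 in whole kidney 1 and 2 (14-fold, 6.78 to 33.4). Serpina1f, a serine protease inhibitor gene under the level minimum, had 0 UMIs in cortex and 50 in outer medulla, 21.6-fold more against the floor of 3 UMIs, with an exact 95% interval that begins at 17. Slc22a13, an organic anion transporter also under the minimum, had 4 UMIs in cortex and 35 in outer medulla. Slc7a13, an amino acid transporter of S3, was at 382 CPM in cortex and 435 in outer medulla with 588 and 435 in whole kidney, and Acy3, an aminoacylase, at 1425, 1311, 2081 and 1867 CPM. For Acy3 the outer medulla was the lowest of the 4 libraries. Cyp7b1 passed the minimum of 20 CPM through the outer medulla library alone, and Slc5a1, another marker of the list, through the cortex library alone.

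Podocyte genes served to gauge glomerular material in the outer medulla. Of 10 markers 3 were measured, and none differed by 2-fold. Podxl (podocalyxin), of the podocyte surface coat, was at 24.9 CPM in cortex, 20.3 in outer medulla, and 20.3 and 16.3 in whole kidney 1 and 2. The list summed to 145 CPM in cortex and 132 in outer medulla, a cortex to outer medulla ratio of 1.1 whose counting interval (0.96 to 1.26) includes 1, and to 115 and 83.7 CPM in the whole kidney libraries. The near-level sum hid classes of barcodes that differed, divided by the number of genes detected in them (after the sums were seen). The ratio of cortex over outer medulla was 2.31 (1.59 to 3.4) in barcodes with 50 to under 100 genes and 2.66 (1.79 to 4.07) in those with 500 or more, and it was 0.838 (0.602 to 1.16) and 0.841 (0.689 to 1.03) in the classes between. How much cortical tissue or free RNA the outer medulla library held, and its part in the ratios above, was not tested.

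Genes of antigen-presenting cells and macrophages were higher in outer medulla as a list. All 9 measured markers of 12 were above equality (57.8% of all measured genes were), 3 of them at least 2-fold (1.08% of all measured genes), with a median log2 ratio of 0.78 against -0.20 between the whole kidney libraries. The list summed to 561 CPM in cortex, 1149 in outer medulla, and 463 and 354 in whole kidney 1 and 2 (2.05-fold between the regions, 1.94 to 2.17). Lyz2, the lysozyme of myeloid cells, was at 16.2 CPM in cortex, 106 in outer medulla, and 29.5 and 33.8 in whole kidney 1 and 2. Of its 57 UMIs in cortex 29.8% came from 1 barcode, and of its 289 in outer medulla 11.1%. The class II antigen presentation genes H2-Aa, H2-Ab1, H2-Eb1 and Cd74 were all higher in outer medulla (77.1 and 175, 116 and 242, 72.3 and 140, and 205 and 355 CPM), with both whole kidney libraries below cortex for each. The complement genes C1qa, C1qb and C1qc, typical of tissue macrophages, had log2 ratios of 0.53 to 0.76 at 23.6 to 37.6 CPM in outer medulla, and the macrophage genes Csf1r and Adgre1 were at 4.42 and 2.21 CPM there. Of the 9, Lyz2, C1qa, C1qc and Ctss, a lysosomal protease gene, passed the minimum of 20 CPM through the outer medulla library alone. No lymphocyte marker reached 20 CPM in either library.

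Endothelial and stromal genes were thinly covered. Of 12 endothelial markers 4 were measured, with Esam, an adhesion molecule, at 7.37 CPM in cortex and 24.3 in outer medulla and Ehd3, a membrane trafficking gene of glomerular endothelium, at 14.5 and 38.3. Plvap, of fenestrated vessels, was lower in outer medulla at 17.7 against 26.1 CPM. Of the 12 stromal and mural markers the contractile genes Acta2 and Tagln and the pericyte gene Rgs5 were measured. All had log2 ratios above 0 (57.8% of all measured genes had) and below 2-fold, with a median of 0.56. In barcodes with at least 500 genes that median was -0.55, and the summed list was lower in outer medulla there, at a ratio of 0.563 to cortex (0.326 to 0.938). Pdgfrb, which defines mural cells, stood at under 1 CPM in both regions (0.567 and 0.736). Esam, Ehd3 and Tagln passed the minimum of 20 CPM through the outer medulla library alone, and Plvap through the cortex library alone.

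Further genes named by rule (the 15 with the largest ratios of 19 at 100 CPM or more in outer medulla, and all 8 eligible in cortex) belonged to no cell type list. Ttr, the thyroxine and retinol carrier transthyretin, was at 826 CPM in cortex, 2786 in outer medulla, and 1481 and 1232 in whole kidney 1 and 2 (3.37-fold, 3.23 to 3.52). It lay in 968 barcodes of cortex and 2137 of outer medulla, and unlike most of the 64 genes it was low in inner medulla (215 CPM). Cryab, the small heat shock protein alpha-B crystallin, was at 43.9 CPM in cortex, 205 in outer medulla, and 64.9 and 54.4 in whole kidney 1 and 2. The epithelial genes Epcam (99.5 and 318 CPM in cortex and outer medulla), Cd24a (116 and 339), Mal2 (27.8 and 105) and Tspan8 (55.6 and 136) encode an adhesion molecule, a surface glycoprotein, a protein of apical transport and a tetraspanin. Both whole kidney libraries lay below outer medulla for each of these genes. Mrps6, a protein of the mitochondrial ribosome, was at 186 and 445 CPM and Ckb, the brain-type creatine kinase, at 55.8 and 134 CPM.

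In the cortex, Clu (clusterin), a secreted chaperone, was at 336 CPM, against 151 in outer medulla, and 315 and 257 in whole kidney 1 and 2. Mir692-1, a microRNA symbol, was at 426 CPM in cortex and 190 in outer medulla. Such a symbol in poly(A)-primed data may count reads of another transcript at that place, so its identity is uncertain. Below 100 CPM, and singled out after their values were seen, Tmem207 (a membrane protein gene) was at 6.52 CPM in cortex and 94.6 in outer medulla, with 7.56 and 10.1 in whole kidney (14.5-fold, 9.46 to 23.3). Ppp1r1b, the phosphatase inhibitor DARPP-32, was at 7.09 and 74.4 CPM, with 16.5 and 12 in whole kidney. On the cortex side, likewise singled out, Ces1g, a carboxylesterase, was at 33.5 and 6.63 CPM and Apob, an apolipoprotein, at 67.2 and 30.2 CPM.

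**Figure D3:**
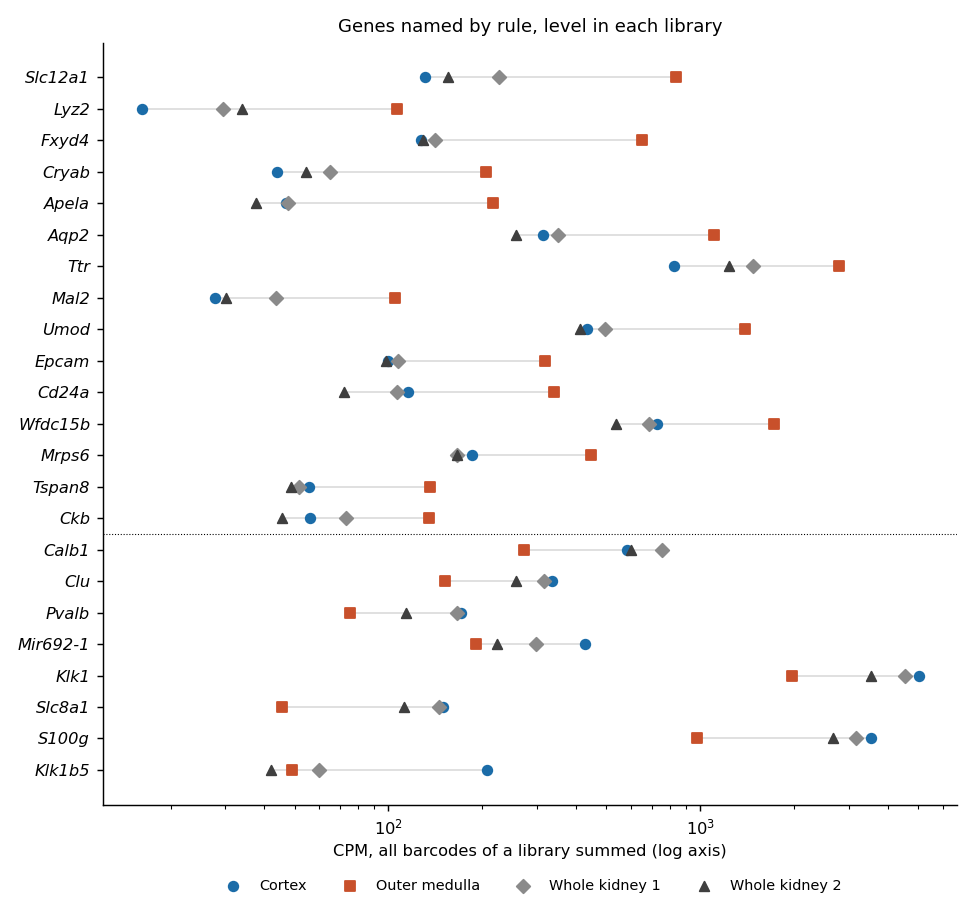
CPM of the 23 genes named by rule in cortex (circles), outer medulla (squares), whole kidney 1 (diamonds) and whole kidney 2 (triangles), on a log axis. The outer medulla is the highest of the 4 libraries for the 15 genes above the dotted line, and for the 8 genes below it the lowest in all but Klk1b5, where whole kidney 2 is lower.

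The 10 genes with the most UMIs over both libraries held 14.3% of the UMIs of cortex and 14.2% of those of outer medulla, and none differed by 2-fold. Kap, the kidney androgen-regulated protein of the proximal tubule, was at 35449.5 CPM in cortex, 46423 in outer medulla, and 37720.4 and 43730.2 in whole kidney 1 and 2. Gpx3, the secreted glutathione peroxidase, was at 44256, 37753, 39913 and 40392 CPM. Ftl1, the ferritin light chain, had the lowest ratio of the 10 at -0.64, with 7795 CPM in cortex, 4998 in outer medulla, and 8354 and 8444 in whole kidney 1 and 2. Outer medulla was the lowest of these 4 libraries for Gpx3 and Ftl1. Rn45s, the ribosomal RNA precursor, was at 8525 and 7434 CPM in the regions but at 13682 and 6799 in the whole kidney libraries. The log2 ratios of Fth1, Fxyd2, Gpx1, Malat1 and Selenop lay between -0.11 and 0.05.

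Ribosomal protein genes, a list added after the sums were seen, were lower in outer medulla by a small and broad difference. Of 80 measured genes 74 were below equality, against 42.2% of all measured genes. At 2-fold, 2 were lower (0.321% of all measured genes were), and the median log2 ratio was -0.32. In the whole kidney comparison 69 of the 80 were higher in whole kidney 2, with a median of 0.17. The list summed to 60902 CPM in cortex, 49118 in outer medulla, and 47792 and 53702 in whole kidney 1 and 2. The outer medulla thus lay between the whole kidney libraries, and the cortex above all 3. Rps28 was at 329 CPM in cortex, 143 in outer medulla, and 240 and 220 in whole kidney 1 and 2, and Rpl32l, a near copy of Rpl32 whose reads may be split, at 64.6, 28.7, 34.4 and 32.4 CPM. Rps28 was therefore low in outer medulla also against whole kidney.

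**Figure D4:**
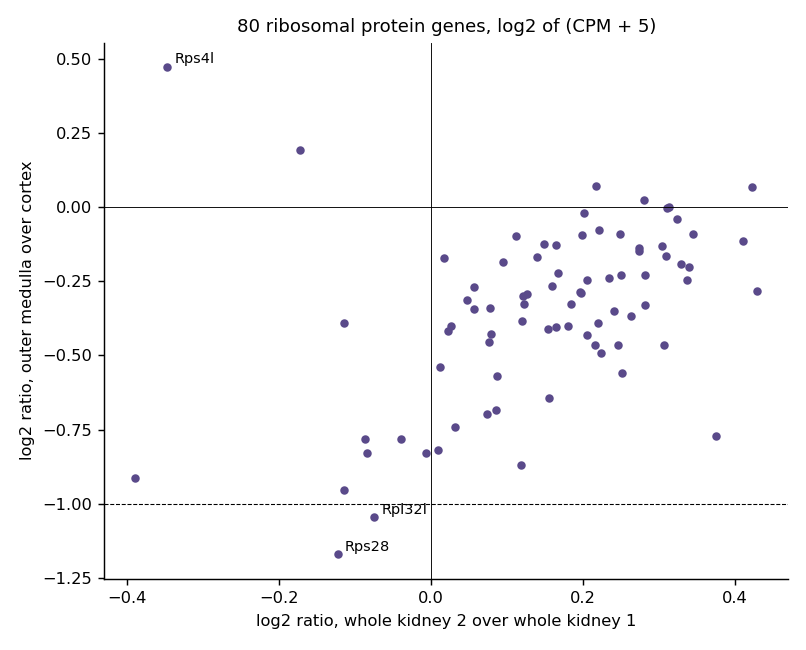
Each point is 1 of 80 measured ribosomal protein genes, with its log2 ratio of CPM plus 5 for whole kidney 2 over 1 on the horizontal axis and for outer medulla over cortex on the vertical axis. On the vertical axis 74 genes lie below 0, 2 of them (Rps28 and Rpl32l) beyond the dashed 2-fold line, and on the horizontal axis 69 lie above 0.

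Among lists of function, those of water and osmolyte transport held genes higher in outer medulla. Of 7 measured aquaporin and urea transporter genes, 4 were 2-fold higher in outer medulla, against 1.08% of all measured genes. They were Aqp2, Aqp3, Aqp4 and Slc14a2, all of them also on the collecting duct lists. Aqp4, Aqp6 and Slc14a2 passed the minimum of 20 CPM through the outer medulla library alone. Aqp1, the water channel of proximal tubule and thin descending limb, was at 154 and 176 CPM. Slc5a3, the myo-inositol transporter that cells use to take up osmolyte, was at 21.8 CPM in cortex, 89.8 in outer medulla, and 38.8 and 15.6 in whole kidney 1 and 2. Its log2 ratio was 1.82, with -1.09 between the whole kidney libraries. Of 6 measured genes of the osmolyte and osmoprotective list, 2 (Slc5a3 and Cryab) were 2-fold higher in outer medulla, against 1.08% of all measured genes. Sgk1 and Slc38a2 of the same list passed the minimum of 20 CPM through the outer medulla library alone. The log2 ratios of this list ran from 0.02 to 2.10, with a median of 0.43. Its sum, mostly Gpx1 (7629 and 7738 CPM), was 7933 CPM in cortex and 8300 in outer medulla. Kcnk1, a potassium channel gene, was at 22.4 CPM in cortex and 55.2 in outer medulla.

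Metabolic lists were close to level. The median log2 ratio was 0.06 for 27 nuclear genes of oxidative phosphorylation, -0.01 for 10 glycolytic genes, -0.03 for 14 genes of fatty acid oxidation and peroxisomes, 0.07 for 7 genes of ammonia production and -0.01 for 12 metallothionein and glutathione genes. None of these genes was 2-fold apart. All 8 genes of gluconeogenesis and fructose use, a proximal tubule task, were higher in cortex (42.2% of all measured genes were), with a median of -0.19, which was 0.03 in barcodes with at least 500 genes. Pck1, which commits carbon to glucose, was at 612 CPM in cortex, 410 in outer medulla, and 431 and 434 in whole kidney 1 and 2, so the cortex was the highest of these 4 libraries. In the metallothionein and glutathione list, 2 of 12 genes were 1.5-fold lower in outer medulla, against 1.96% of all measured genes. They were Gpx4, the lipid peroxide-reducing enzyme (591 and 338 CPM), and Gstp1, a glutathione transferase (166 and 97.6 CPM). The outer medulla was the lowest of the 4 libraries for both.

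In lists that track handling, oxygen and time of day, no measured gene was 2-fold apart between the regions. The summed ratio of outer medulla over cortex was 1.17 (1.08 to 1.25) for immediate early and 0.858 (0.838 to 0.879) for heat shock genes. It was 0.898 (0.859 to 0.938) for hypoxia response and 0.947 (0.89 to 1.01) for clock genes. Between the whole kidney libraries these sums had ratios of 0.839, 1, 0.512 and 1.75 in that order. The median log2 ratio was 0.21 for 8 immediate early genes, -0.16 for 9 heat shock genes, -0.15 for 6 hypoxia response genes and -0.04 for 5 clock genes. Among the immediate early genes, Btg2 and Klf2 passed the minimum of 20 CPM through the outer medulla library alone. Of 12 genes that mark tubular injury, 6 were measured and 4 of these were higher in outer medulla (57.8% of all measured genes were). The median of the 6 was 0.51 (-0.29 between the whole kidney libraries). Cd24a was 2-fold higher in outer medulla (1.08% of all measured genes were) and Clu 2-fold lower (0.321%). For some of the handling, hypoxia and clock genes the whole kidney libraries differed more than the regions did. Dbp, a clock output factor, was at 175 CPM in cortex and 170 in outer medulla but at 41.2 and 203 in the whole kidney libraries. Ndrg1, a hypoxia-induced gene, was at 798 and 677 CPM in the regions and at 1804 and 688 in whole kidney. The Y-linked gene Ddx3y was at 48.2 CPM in cortex, 47.1 in outer medulla, and 59.8 and 42.4 in whole kidney 1 and 2, and Xist, expressed from the inactive X chromosome, had 0.368 CPM in outer medulla and 0 in the other 3.

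The ratios were not the same in barcodes of different content. Barcodes were divided by the number of genes detected in them (50 to under 100, 100 to under 200, 200 to under 500, and 500 or more), a division made after the sums were seen, and each class was scaled to its own UMI total. The thick ascending limb list stood at 3505 CPM in cortex and 11102 in outer medulla in the first class, a ratio of 3.17 (2.99 to 3.36). In the next classes the ratio was 2.83 and 2.39, and in barcodes with 500 or more genes it was 1.06 (1 to 1.12), at 1869 and 1979 CPM. The difference on this list was thus carried by barcodes with fewer than 500 genes. Within it, Slc12a1 stayed higher in outer medulla in barcodes with at least 500 genes (log2 ratio 1.72), whereas Umod (-0.00) and Wfdc15b (-0.13) did not.

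Of the 15 genes named by rule as higher in outer medulla, 8 were still 2-fold higher in barcodes with at least 500 genes and 13 were above equality, and all 8 genes named in cortex were still 2-fold higher there. Of all genes measured in those barcodes, 0.703% were 2-fold higher in outer medulla and 0.843% in cortex. Those barcodes hold part of the UMIs by which the genes were chosen, so these counts are not independent of the choice. Mrps6, Epcam, Cd24a, Tspan8 and Ckb kept their direction at log2 ratios of 0.61, 0.72, 0.59, 0.25 and 0.27.

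The principal cell, macrophage, connecting tubule, distal convoluted tubule and S1 and S2 lists kept their direction in every class. The principal cell ratio of outer medulla over cortex was 2.58, 3.14, 2.99 and 2.27 from the first class to the last, and the macrophage and antigen presenting ratio 2.14, 1.52, 1.66 and 2.23. For the connecting tubule, the ratio of cortex over outer medulla was 2.35, 2.27, 3.39 and 3.49 in the same order, and for the distal convoluted tubule 1.75, 1.49, 1.79 and 2.15. For the S1 and S2 proximal list it was 1.3, 1.26, 1.18 and 1.06. Other lists did not keep it. The inner medullary collecting duct ratio of outer medulla over cortex was 1.86, 2.06, 2.96 and 0.938. The endothelial ratio of outer medulla over cortex was 1.98, 1.25, 0.667 and 1.66, that of the stromal and mural list 1.47, 1.51, 1.39 and 0.563, and that of the podocyte list 0.433, 1.19, 1.19 and 0.376. The S3 ratio was 0.887, 0.922, 1.01 and 1.05, and the erythroid ratio 0.552, 2.83, 3.6 and 1.47 on at most 76 UMIs of a library in a class. The S1 and S2 and thick ascending limb ratios came nearer to 1 in barcodes with many genes and the connecting tubule ratio went away from it. No cell classes were formed, so barcodes with few genes may hold small or damaged cells or free RNA, which cannot be told apart here.

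**Figure D5:**
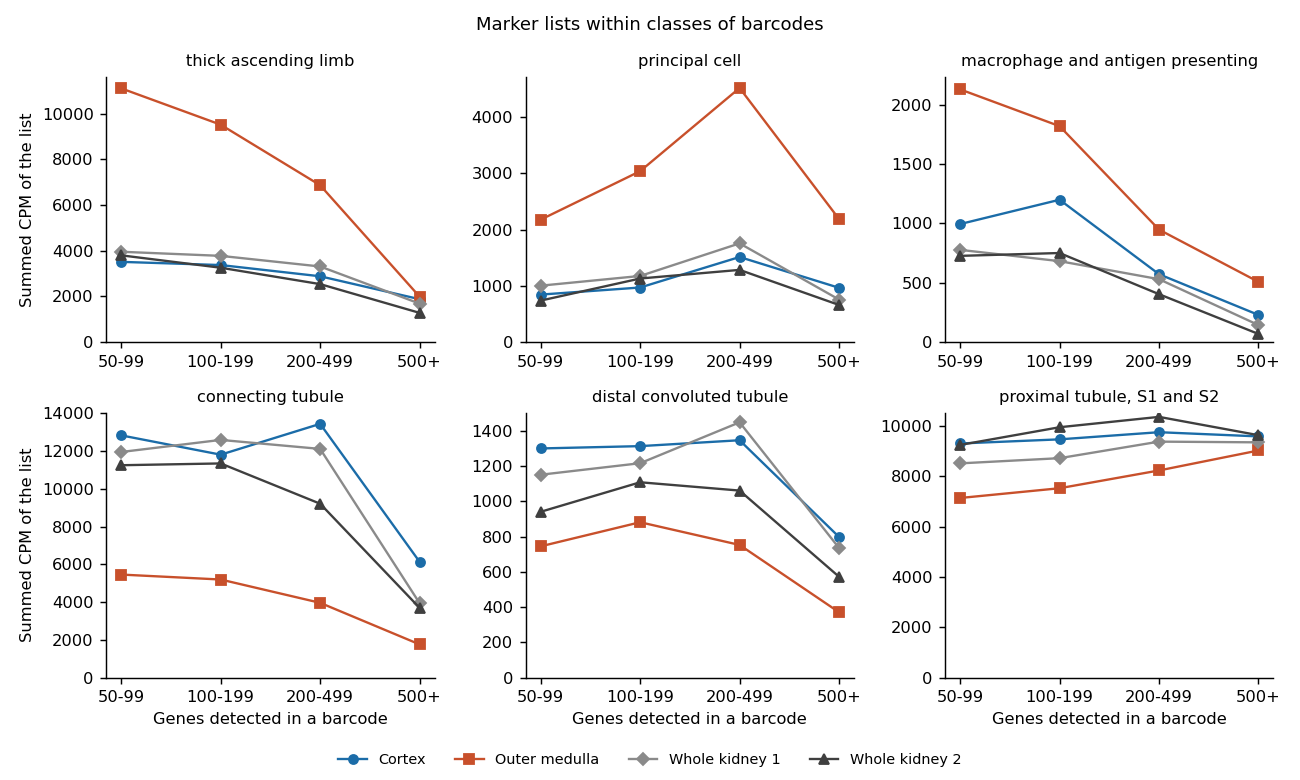
Summed CPM of 6 marker lists within classes of barcodes by number of detected genes, for cortex, outer medulla and both whole kidney libraries; each class is scaled to its own UMI total. The thick ascending limb lines of cortex and outer medulla lie apart in barcodes with under 100 genes (3505 and 11102 CPM) and meet at 500 or more (1869 and 1979 CPM), while the connecting tubule lines stay apart.

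The DNA before the start sites of the genes 2-fold apart was searched for short motifs, as a description of sequence that the comparison did not use. RefSeq promoter entries (build GRCm38.p6) were at hand for 47 of the 64 genes higher in outer medulla and 14 of the 19 higher in cortex, and the 250 bases before the start were read on both strands. The TATA box letters TATAAA, a core promoter element, occurred in 7 of the 47 and 3 of the 14, against 8.1% of 4703 measured genes and 14.3% of all 27025 genes of the table. The letters AGATAA, bound by GATA factors, occurred in 3 of the 47 and 2 of the 14 (7.19% of measured genes, 11.4% of all). A match is a string in this window and not a shown binding site, and with so few genes no difference was read from these shares.

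The promoters of 4 listed or named genes with a TATAAA match are shown because these genes were 2-fold higher in outer medulla (Aqp3, Avpr2 and Plet1 of the collecting duct lists, and Ckb). The match is in capitals and the start site follows the last base. A chromosome was left out of the choice of genes to show, so the set may be incomplete. The TATAAA letters, in either orientation, begin 30 bases before the start in Plet1 (chr9:50494275-50494524, plus strand), 45 in Avpr2 (chrX:73891852-73892101, plus strand), 28 in Ckb (chr12:111672339-111672588, minus strand) and 29 in Aqp3 (chr4:41098184-41098433, minus strand).
Plet1: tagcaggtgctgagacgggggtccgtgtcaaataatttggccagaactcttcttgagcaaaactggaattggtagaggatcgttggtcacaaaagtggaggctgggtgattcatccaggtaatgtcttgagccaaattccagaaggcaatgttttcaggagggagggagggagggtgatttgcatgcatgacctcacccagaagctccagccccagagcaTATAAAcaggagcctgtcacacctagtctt
Avpr2: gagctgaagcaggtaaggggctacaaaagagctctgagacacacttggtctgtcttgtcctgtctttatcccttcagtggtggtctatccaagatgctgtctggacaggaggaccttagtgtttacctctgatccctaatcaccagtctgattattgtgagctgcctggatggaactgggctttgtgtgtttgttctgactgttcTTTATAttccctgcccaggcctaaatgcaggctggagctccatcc
Ckb: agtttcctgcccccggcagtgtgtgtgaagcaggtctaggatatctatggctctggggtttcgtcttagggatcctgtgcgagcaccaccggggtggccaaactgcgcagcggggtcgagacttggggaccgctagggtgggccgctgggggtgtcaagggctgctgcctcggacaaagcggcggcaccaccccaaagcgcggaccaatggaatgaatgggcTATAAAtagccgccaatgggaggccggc
Aqp3: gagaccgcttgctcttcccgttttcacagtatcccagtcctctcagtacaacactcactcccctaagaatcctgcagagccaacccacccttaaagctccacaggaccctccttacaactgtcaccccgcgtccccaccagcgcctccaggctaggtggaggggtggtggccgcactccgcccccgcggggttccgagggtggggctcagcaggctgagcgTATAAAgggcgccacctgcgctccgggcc
All 4 matches lie in the last 45 bases before the start.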

How the data were processed

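Drop-seq libraries of cortex and outer medulla (1 each) and whole kidney (2) were used. Inner medulla enters only as values beside them. The deposited tables hold raw UMI counts per gene symbol and barcode, with no normalization seen in the values. The submitters' processing notes name mm9 and Seurat 2.3.1 with no role, and no aligner, annotation or UMI correction is given in the sources used here. No coordinates were taken from the tables.

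Counts of all barcodes were summed per library and divided by the library total to give CPM. No cells were called and doublets were not treated. Genes needed 20 CPM in the higher library, log2 ratios used a pseudocount of 5, and 2-fold was a log2 ratio of 1 in size. Intervals of ratios were exact conditional (Clopper-Pearson) at 95%, and the floor for 0 was 3 counts per library. Reads were not seen, so these cover counting error only. The script was tested on simulated data.

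Genes named were, per direction, up to 15 with the largest ratios among those with 100 CPM, 2-fold apart and farther apart than the whole kidney libraries, without ribosomal protein, mitochondrial and haemoglobin genes; the 10 genes with the most UMIs; and measured members of 17 cell type and 20 function lists. Some genes that this rule names are not reported here. Members and lists were chosen with earlier results of these data known. Tools were Python 3.11.15, numpy 2.4.6, pandas 2.3.3, scipy 1.17.1, matplotlib 3.10.9 and, for scaling factors only, edgeR 4.0.16. In 13 alternatives the pseudocount, scaling, level minimum, fold, depth or barcodes differed.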

Additional observations from a re-analysis of the deposited data

How the results depend on the processing

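With pseudocounts of 1 and 10, TMM or relative log expression factors, a total without the 10 most abundant genes, barcodes with at least 200 genes, libraries thinned to 1 total, or no ribosomal protein genes (added after seeing the data), 48 to 83 genes were 2-fold higher in outer medulla and 16 to 24 in cortex, within 1.5 times of the 64 and 19 reported. With no level minimum there were 113 higher in outer medulla, 112 of them past the whole kidney difference. With a minimum of 100 CPM there were 19 and 9, all past it. At 1.5-fold there were 207 and 116, of which 206 and 112 were past it. In barcodes with under 100 genes there were 401 and 183 (391 and 177 past it), or 6.02% and 2.75% of 6663 measured genes. In the same barcodes 73 genes were 2-fold higher in whole kidney 2 and 192 in whole kidney 1. In barcodes with at least 500 genes there were 40 higher in outer medulla (0.703%) and 48 in cortex (0.843%), all past it. Of these, 26 and 13 were among those reported. There, 17 genes were 2-fold higher in whole kidney 2 and 27 in whole kidney 1. The share of 2-fold genes that were higher in outer medulla was then 45.5%, against 77.1%. In those barcodes the log2 ratio turned for Umod (-0.00278) and Wfdc15b (-0.134), as did the median of the stromal and mural list (-0.55 against 0.56); the cause was not tested. Of 230 log2 ratios of 2-fold named genes under alternatives, 228 kept their sign. These genes were chosen for large ratios in the same counts, so that outcome was largely fixed in advance. The same holds for the counts of genes past the whole kidney difference. No paired analysis was possible because each region has 1 library and no test was run. Depth limits low genes, as 1 UMI is 0.368 CPM in outer medulla and 0.283 in cortex, and the labels do not show whether the whole kidney difference is one between animals.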
